A study of Mus musculus with 7 samples.

Results

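The genes described here build the contractile apparatus of heart muscle. They are 35 genes of the sarcomere and contractile cytoskeleton, picked by symbol from the 23284 gene rows of the count tables, and all 35 had a row. Thick filament genes numbered 10, thin filament genes 12, Z disc genes 11 and M band genes 2. RNA came from the atrioventricular canal (AVC), the narrow segment of the looping heart tube between atrium and ventricle, of outbred NMRI mouse embryos with 18 to 23 somites (labelled gestational day e9.0-e9.25, while sample titles read e9.5). The null group (4 libraries, replicates 1 to 4) carried Hand2 d/d, a germline allele from which Cre recombinase had removed the entire coding region of Hand2, so the factor was missing in every cell of the embryo and not only in the canal. The wild-type group (3 libraries, replicates 2 to 4) came from the same background, a further wild-type pool having been set aside before sequencing for its RNA quality, and each library of both groups pooled 4 hand-dissected canals, so differences between embryos within a pool cannot be seen. HAND2 belongs to the basic helix-loop-helix transcription factors and acts in the developing heart, and the series is titled as a study of valve development.

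The sarcomere is the repeating unit of striated muscle. Myosin heavy chains with their light chains and myosin-binding protein C form thick filaments, which pull on thin filaments of actin, tropomyosin and the calcium-sensitive troponin complex. Thin filaments are anchored at the Z disc and thick filaments are held in register at the M band, and titin runs from one to the other. In the embryonic heart many of these proteins come in paralogs whose use differs between atrium and ventricle or shifts as the heart matures: MYH7 against MYH6, MYL2 (ventricular) against MYL7 (atrial and, early, the whole tube), and slow skeletal troponin I (TNNI1) against cardiac troponin I (TNNI3).

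The 6 promoter stretches below show the paralogs and motifs that recur in the results. Each is the 120 bases before the RefSeq transcription start on the gene's own strand (GRCm38.p6), 5′ to 3′. Capitals mark a CArG box, the binding motif of serum response factor, or a MEF2 box, the motif of the MEF2 factors. Myh6 (chr14:54966608-54966727, minus strand) and Myh7 (chr14:54994627-54994746, minus strand) are neighbours on chromosome 14 and hold neither motif in this stretch. Myl7 (chr11:5898783-5898902, minus strand) and Actc1 (chr2:114052876-114052995, minus strand) have a CArG box that begins 61 and 47 bases before the start. Mybpc3 (chr2:91118024-91118143, plus strand) and Myoz2 (chr3:123034988-123035107, minus strand) have a MEF2 box that begins 90 and 33 bases before it.
Myh6: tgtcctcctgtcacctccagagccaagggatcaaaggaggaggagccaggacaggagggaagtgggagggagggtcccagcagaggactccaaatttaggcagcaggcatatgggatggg
Myh7: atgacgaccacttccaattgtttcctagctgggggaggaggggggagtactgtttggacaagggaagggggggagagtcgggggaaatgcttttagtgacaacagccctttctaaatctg
Myl7: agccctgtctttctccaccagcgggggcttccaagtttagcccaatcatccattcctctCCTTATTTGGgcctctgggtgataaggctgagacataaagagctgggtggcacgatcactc
Actc1: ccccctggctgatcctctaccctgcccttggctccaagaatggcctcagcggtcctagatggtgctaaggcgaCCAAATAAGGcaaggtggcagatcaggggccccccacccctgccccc
Mybpc3: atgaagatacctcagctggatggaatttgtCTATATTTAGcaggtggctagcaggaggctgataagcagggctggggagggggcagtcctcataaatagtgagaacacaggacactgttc
Myoz2: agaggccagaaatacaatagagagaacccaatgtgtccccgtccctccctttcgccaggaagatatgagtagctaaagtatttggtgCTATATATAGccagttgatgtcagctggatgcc

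RefSeq promoter entries matched 29 of the 35 genes in 39 windows, and Tagln, Tcap, Xirp1, Nexn, Cryab and Myom2 had no entry. Over the 250 bases before the start, on both strands, a CArG box stood in 8 of the 39 windows (20.5%, genes Myl3, Myl7, Actc1, Acta1, Ldb3, Nebl and Myom1), against 1.47% of all 32851 windows. Windows of the same gene can overlap, and both Ldb3 windows held the same box, 35 and 109 bases before their starts, which was counted for each. A MEF2 box stood in 5 windows (12.8%, genes Mybpc3, Ttn, Myoz2 and Synpo2l), against 2.92% of all windows. The E-box CANNTG, the core bound by basic helix-loop-helix factors, stood in 32 windows (82.1%), against 66.2% of all. Of the 7 genes with a CArG box, Nebl was called higher in the null and the other 6 were not called (log2 fold change -0.09 for Myl3 to 0.23 for Ldb3). Among all genes tested, 4.11% were called higher and 2.13% lower, and 1 gene of 7 is too few to set against these shares. The Nebl box stood before the start at chr2:17462856 and before no other listed start of the gene. Counts per gene do not tell these starts apart. Matches are a description of the letters only. The Myl2 entries began 7762 and 8227 bases from the nearest GENCODE start of the gene, so neither is printed.

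The 3 myosin heavy chain genes among the members each carry a microRNA in an intron on the same strand, and these are printed because 2 of them share a seed across the Myh6 and Myh7 pair. Capitals mark the seed, bases 2 to 8. MiR-208a-3p lies in Myh6 (chr14:54949072-54949093), miR-208b-3p in Myh7 (chr14:54975710-54975731) and miR-499-5p in Myh7b (chr2:155622893-155622913, plus strand; RefSeq, GRCm38.p6).
mmu-miR-208a-3p: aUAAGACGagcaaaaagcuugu
mmu-miR-208b-3p: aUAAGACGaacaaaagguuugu
mmu-miR-499-5p: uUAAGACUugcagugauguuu
The first pair has the seed UAAGACG and the third UAAGACU. Their precursors had 3, 6 and 0 reads over the 7 libraries, at or near the floor, so no level is given for them.

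The libraries held 27905601 to 44860753 reads in genes, and levels are given in CPM, the read count of a gene scaled to the total of its library. Hand2 was counted 7 to 26 times in null and 1194 to 2123 times in wild-type libraries, so all 7 matched their genotype label. A count of 3 reads, taken as the floor, was 0.0669 to 0.108 CPM. Null replicate 2 stood apart in its share of reads outside genes (14.2%, against 7.31% to 9.998% in the other 6), and wild-type replicate 4 in its share of haemoglobin reads (2.18%, against 0.554% to 1.43%). Of canal markers, Tbx3 (65.7 CPM), Bmp2 (93.7 CPM) and Tbx2 (9.44 CPM) were present in wild type, while Cacna1g was at 0.613 CPM.

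In wild-type canals the 35 genes took 5.60%, 5.92% and 5.31% of all gene reads in replicates 2 to 4, and in null canals 5.68%, 5.99%, 6.32% and 5.65% in replicates 1 to 4. The groups overlapped, and no test was made of this sum. Thin filament genes held 2.78% to 3.09% of gene reads in wild type and 2.70% to 3.22% in the null, thick filament genes 2.14% to 2.42% and 2.08% to 2.79%, and Z disc genes 0.365% to 0.389% and 0.389% to 0.464%, where the lowest null library lay just above the highest wild-type library. In bulk tissue the number of muscle cells and the RNA of these genes per muscle cell cannot be told apart. Of the 35 genes, 34 passed the filter on low counts.

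Per kilobase of exon, the most abundant in wild type was Myl7, the atrial regulatory light chain, at 21068 ± 720.3 CPM per kb (SD, n = 3). Cardiac actin Actc1 followed with 6687 ± 749, the calcium sensor troponin C (Tnnc1) with 2568 ± 260.0, the embryonic and atrial essential light chain Myl4 with 2230.2 ± 219 and Tnni1 with 2175 ± 42.4 CPM per kb. Tnnc1, Myl4 and Tnni1 differed from each other by less than 2 times the larger SD, so their order is not firm, whereas Actc1 and Myl7 stood clear of each other and of these 3. At the low end were Nebl (3.70 ± 0.198), Myh7b (1.13 ± 0.0742) and the M band gene Myom2 (0.0136 ± 0.00670 CPM per kb). Lengths are exon unions of the GENCODE M21 annotation and include exons that the heart may not use, which lowers the value of genes such as Nebl and Ttn.

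Between genotypes, 2 of the 34 genes tested rose and 1 fell at an adjusted p under 0.05. Myh7, the beta myosin heavy chain, and Nebl, the Z disc protein nebulette, were higher in the null, and Myl2, the ventricular regulatory light chain, was lower. Among all 14290 genes tested, 4.11% were called higher and 2.13% lower (587 and 305 genes, 6.24% in all), so the members' shares lay near those of all genes. The median log2 fold change was 0.15 over the members and 0.02 over all genes tested, and 24 of 34 members had a positive value, against 52.3% of all genes. By structure the medians were 0.23 for the thick filament, 0.12 for the thin filament and 0.18 for the Z disc. Groups did not overlap, with null above wild type, for 4 members (Myh7, Mybpc3, Nebl, Synpo2l), a pattern that 11.6% of all genes had, and with null below for 4 (Myl2, Tnni1, Myoz2, Cryab), which 10.3% of all genes had. Both shares are close to those of all genes. DESeq2 called 5 members higher and 2 lower, against 7.01% and 5.42% of all genes, and with libraries scaled to myocardial genes 1 was higher and 1 lower, against 3.13% and 0.714%. The remaining gene, Myom2, was under the filter on low counts. The plot of fold changes by structure shows these values with their errors.

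**Figure D1:**
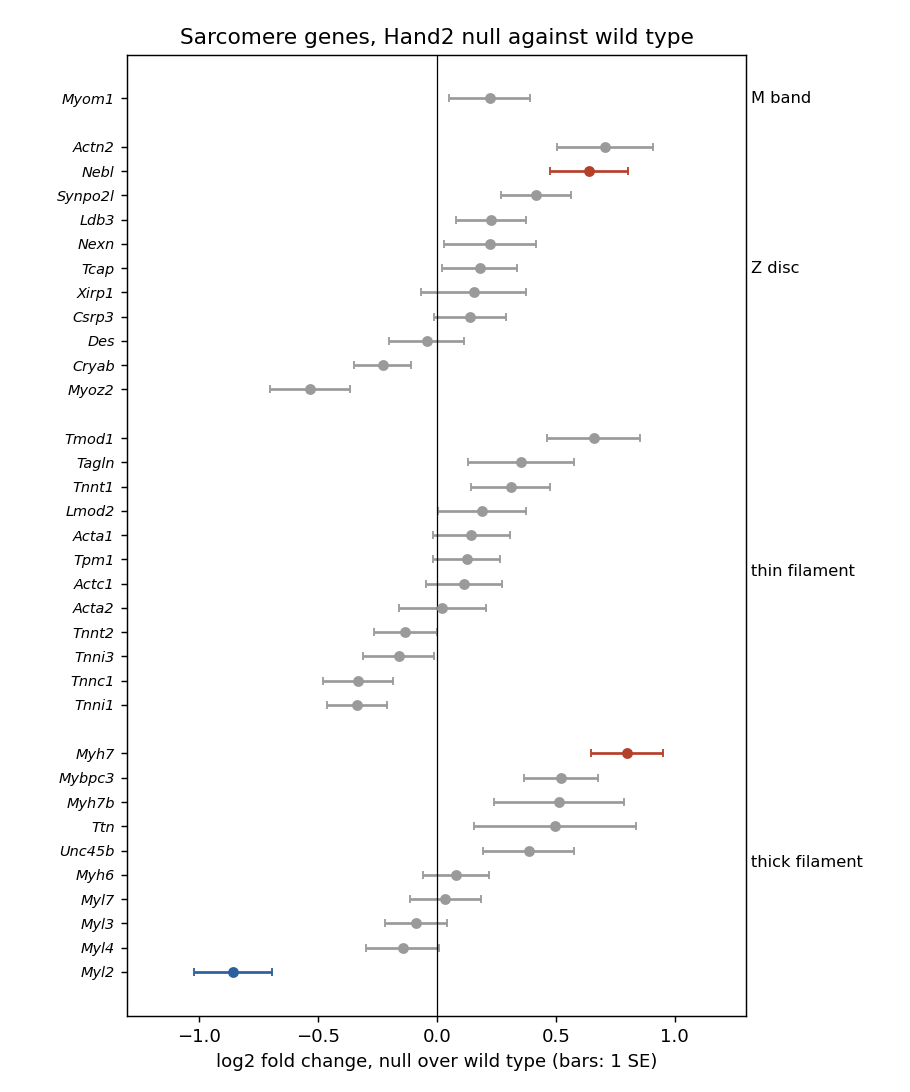
Log2 fold change of null over wild type for the 34 sarcomere genes tested, grouped by structure; points are edgeR estimates, bars 1 SE, red a gene called higher, blue a gene called lower and grey a gene not called. Myh7 (0.80) and Nebl (0.64) lie at the right and Myl2 (-0.86) at the far left of their groups.

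Myh7 had 993, 1239.5, 1005 and 1476 CPM in null replicates 1 to 4 and 698, 651 and 650.5 CPM in wild-type replicates 2 to 4. Every null library lay above every wild-type library, and null replicate 4 was the highest. The change was 1.74-fold (log2 fold change 0.80 with SE 0.152, adjusted p = 0.0100). Its paralog Myh6, the alpha heavy chain, had 867, 1041, 1039 and 981 CPM in null replicates 1 to 4 and 794, 1031 and 923 CPM in wild-type replicates 2 to 4, with overlapping groups (log2 fold change 0.08 with SE 0.139, adjusted p = 0.771). Myh6 and Myh7 have nearly the same exon length, and 22.2% of the 50-base windows of the Myh7 transcript occur in Myh6 word for word (1373 of 6181, and 22.6% of the Myh6 windows in Myh7). Reads from those windows align to both genes, and reads with several alignments are not in the counts, so both levels are underestimates and rest on the rest of the transcript. The share of reads with several alignments, over all genes, was 9.08% to 11.6% across null pools and higher, 12.2% to 13.8%, across wild-type pools, and its part in the Myh7 result was not tested. Counting windows that occur in any other annotated transcript, 28.2% of the Myh7 transcript was shared. The libraries were unstranded, per the labels, so reads from an antisense transcript of the same stretch cannot be told apart from those of Myh7. The third heavy chain, Myh7b, a slow myosin of low abundance, had 6.61, 16.1, 10.7 and 7.24 CPM in null replicates 1 to 4 and 6.98, 6.50 and 7.42 CPM in wild-type replicates 2 to 4. Null replicates 2 and 3 were above all wild-type libraries, null replicates 1 and 4 were within the wild-type range, and the change was not called (log2 fold change 0.51 with SE 0.273, adjusted p = 0.272).

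Myl2 had 697, 697, 752 and 640.2 CPM in null replicates 1 to 4 and 1241, 1518 and 972 CPM in wild-type replicates 2 to 4. The 4 null libraries lay close together and below all wild-type libraries, among which replicate 4 was the lowest and replicate 3 the highest. The log2 fold change was -0.86 with SE 0.164 (adjusted p = 0.0107). Its atrial counterpart Myl7 had 12541, 13698, 14918 and 10436 CPM in null replicates 1 to 4 and 12742, 12602 and 11946 CPM in wild-type replicates 2 to 4, and the groups overlapped fully (log2 fold change 0.04 with SE 0.151, adjusted p = 0.914). Myl3, the ventricular essential light chain, had 2099, 1967, 2157 and 1839.6 CPM in null replicates 1 to 4 and 2178, 2073 and 2114 CPM in wild-type replicates 2 to 4, and Myl4 had 2340.3, 2511, 2900.0 and 2081 CPM in null replicates 1 to 4 and 2757, 2897 and 2388 CPM in wild-type replicates 2 to 4. Neither pair of groups separated (log2 fold changes -0.09 with SE 0.130 and -0.14 with SE 0.153). Of the 4 light chains Myl2 passed the test, and ratios between light chains are given further on. Myl2 kept a value of -1.02 to -0.67 with any 1 library left out, but its adjusted p was 0.0597 when wild-type replicate 2 was dropped and 0.0712 when replicate 3 was. Myh7 likewise ranged from 0.67 to 0.86 and had an adjusted p of 0.0614 and 0.0580 without these same libraries.

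**Figure D2:**
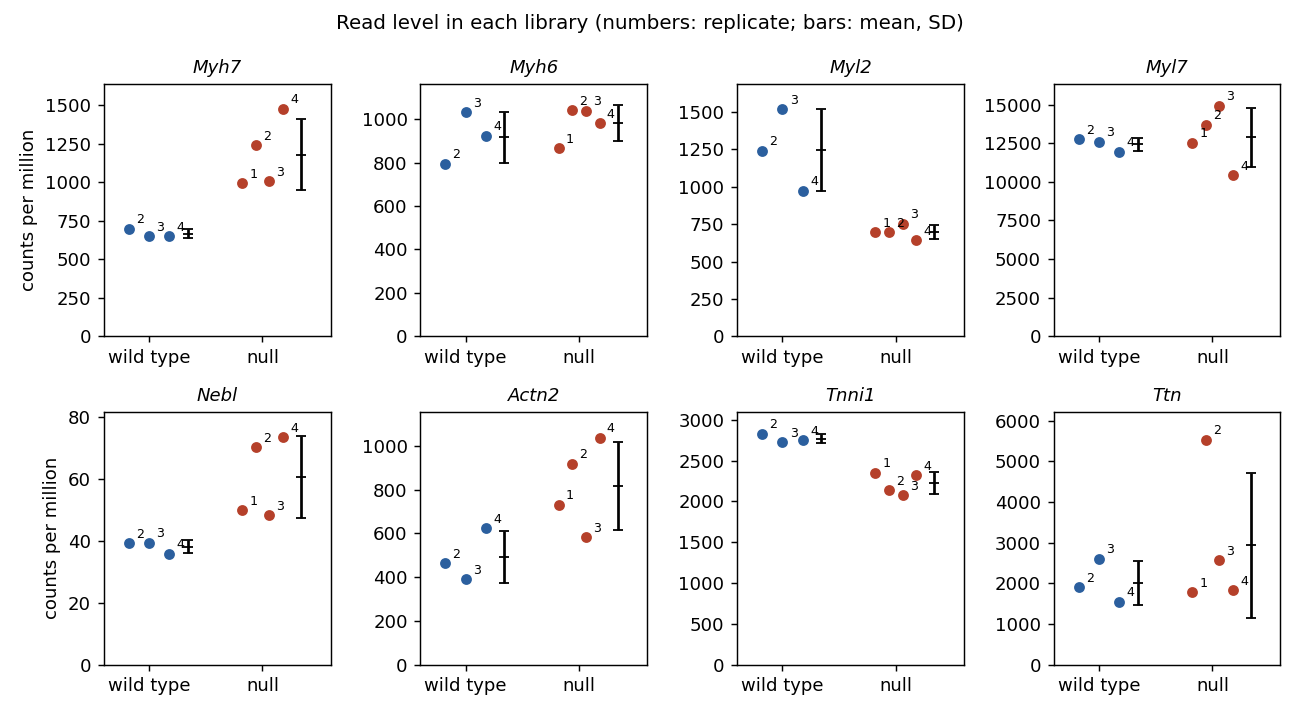
Levels in CPM in each library for 8 genes; points are libraries with their replicate number, and the bar beside each group gives the mean and SD (n = 3 wild type, n = 4 null). Null and wild-type points separate for Myh7, Myl2, Nebl and Tnni1 and overlap for Myh6, Myl7, Actn2 and Ttn, whose null replicate 2 stands at 5536 CPM.

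The other thick filament genes were not called. Mybpc3, cardiac myosin-binding protein C, had 696, 899, 674 and 1026 CPM in null replicates 1 to 4 and 535, 560.5 and 596 CPM in wild-type replicates 2 to 4, without overlap (log2 fold change 0.52 with SE 0.155, adjusted p = 0.0657). It passed under DESeq2 (adjusted p = 0.0250), as it did without null replicate 3 (0.0307). Unc45b, the chaperone that folds the myosin head, had 303, 338, 226 and 455 CPM in null replicates 1 to 4 and 247, 239.8 and 259 CPM in wild-type replicates 2 to 4 (log2 fold change 0.39 with SE 0.190, adjusted p = 0.237). Null replicate 4 was highest and null replicate 3 lay under all wild-type libraries. Ttn, titin, had 1778, 5536, 2574 and 1834 CPM in null replicates 1 to 4 and 1899, 2608 and 1545 CPM in wild-type replicates 2 to 4. The value of 0.50 (SE 0.339) rested on null replicate 2, without which it was 0.035.

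No thin filament gene was called, and for 11 of the 12 the groups overlapped. Actc1 had 11043, 8833, 11846 and 11392 CPM in null replicates 1 to 4 and 10313, 10647 and 8590.2 CPM in wild-type replicates 2 to 4 (log2 fold change 0.12 with SE 0.160, adjusted p = 0.704). Acta1, skeletal actin, which the embryonic heart co-expresses, had 1836, 1459, 1334 and 1615 CPM in null replicates 1 to 4 and 1505, 1530.0 and 1148 CPM in wild-type replicates 2 to 4, with null replicate 1 the highest. Smooth muscle actin Acta2, an early marker of cardiac myocytes, had 2437, 2328, 3007 and 2971 CPM in null replicates 1 to 4 and 2944, 2955 and 1934 CPM in wild-type replicates 2 to 4, and its low value was wild-type replicate 4. Their log2 fold changes were 0.15 (SE 0.164) and 0.02 (SE 0.182), and the sign for Acta2 turned to -0.050 and -0.029 when null replicate 3 or 4 was left out and to -0.16 when wild-type replicate 4 was. Tagln, the actin-binding protein transgelin, ranged from 555 to 923 CPM in null and 393 to 661 CPM in wild type (log2 fold change 0.35 with SE 0.224, adjusted p = 0.356). In the 50-base comparison Actc1 shared no window with another annotated transcript and Acta1 2.22% of its windows. Tagln shared 48.3% of its windows with other annotated transcripts, so its count is uncertain.

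Among the troponins, the inhibitory subunit Tnni1 had 2353, 2139, 2077 and 2319 CPM in null replicates 1 to 4 and 2830.5, 2728 and 2749 CPM in wild-type replicates 2 to 4. All null libraries lay below all wild-type libraries, but the difference was small and not called (log2 fold change -0.33 with SE 0.125, adjusted p = 0.127). Tnni3 had 829.8, 647, 782 and 679.6 CPM in null replicates 1 to 4 and 821, 728 and 894 CPM in wild-type replicates 2 to 4, with overlap (log2 fold change -0.16 with SE 0.149, adjusted p = 0.550). The calcium-binding subunit Tnnc1 had 1293, 1580.3, 1727 and 1373 CPM in null replicates 1 to 4 and 1802, 2059 and 1694 CPM in wild-type replicates 2 to 4. Only null replicate 3 reached the wild-type range (log2 fold change -0.33 with SE 0.147, adjusted p = 0.192). Cardiac troponin T, Tnnt2, had 1798, 2023, 1997 and 1917 CPM in null replicates 1 to 4 and 1793, 2203 and 2275 CPM in wild-type replicates 2 to 4 (log2 fold change -0.13 with SE 0.134, adjusted p = 0.588). The slow skeletal form Tnnt1 had 61.7, 57.2, 76.1 and 50.4 CPM in null replicates 1 to 4 and 46.7, 48.0 and 52.3 CPM in wild-type replicates 2 to 4, with null replicate 4 inside the wild-type range (log2 fold change 0.31 with SE 0.166, adjusted p = 0.276). The troponin subunits Tnni1, Tnni3, Tnnc1 and Tnnt2 thus had negative values and Tnnt1 a positive one, and none of the 5 passed the test.

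Tropomyosin Tpm1, which covers the myosin sites on actin, was 7768 ± 516 CPM over the 4 null pools and 7045 ± 798 CPM over the 3 wild-type pools (mean ± SD, log2 fold change 0.13, SE 0.142). The pointed-end cap Tmod1, tropomodulin, had 253, 260.5, 170.4 and 307 CPM in null replicates 1 to 4 and 151, 123 and 190.4 CPM in wild-type replicates 2 to 4. Null replicate 3 fell inside the wild-type range (log2 fold change 0.66 with SE 0.196, adjusted p = 0.0666). Tmod1 passed under DESeq2 (0.0229) and without null replicate 3 (0.0133). Of its transcript, 39.8% of the 50-base windows occur in the overlapping gene Tstd2, so its count is uncertain. The leiomodin Lmod2, which elongates thin filaments, was 47.4 ± 12.1 CPM over the 4 null pools and 41.0 ± 3.85 CPM over the 3 wild-type pools (mean ± SD, log2 fold change 0.19, SE 0.186).

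At the Z disc, Nebl had 50.1, 70.3, 48.3 and 73.7 CPM in null replicates 1 to 4 and 39.3, 39.5 and 35.9 CPM in wild-type replicates 2 to 4. Null replicates 2 and 4 were far above wild type, and null replicates 1 and 3 nearer to it. It was called (log2 fold change 0.64 with SE 0.164, adjusted p = 0.0423), with 0.52 to 0.72 when 1 library was left out, but it kept the call in only 1 of those 7 fits (without null replicate 3). Scaling the libraries to myocardial genes outside the members also ended the call (0.74, adjusted p = 0.0875). The Nebl count covers all listed starts of the gene and does not tell their transcripts apart. Actn2, alpha-actinin, which crosslinks thin filaments in the Z disc, had 730.5, 919, 581 and 1036 CPM in null replicates 1 to 4 and 464, 389 and 623 CPM in wild-type replicates 2 to 4. Its highest wild-type and lowest null libraries crossed (log2 fold change 0.71 with SE 0.201, adjusted p = 0.0581). It passed under DESeq2 (0.0139), with no filter on low counts (0.0435) and when null replicate 3 (0.0176) or wild-type replicate 4 (0.0378) was left out. Synpo2l, an actin-bundling Z disc protein, had 95.6, 154, 115 and 123 CPM in null replicates 1 to 4 and 91.7, 90.7 and 86.9 CPM in wild-type replicates 2 to 4, without overlap (log2 fold change 0.42 with SE 0.147, adjusted p = 0.110).

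Myoz2, calsarcin, a low-abundance Z disc partner of calcineurin, had 7.23, 8.19, 8.09 and 8.68 CPM in null replicates 1 to 4 and 10.8, 10.7 and 12.97 CPM in wild-type replicates 2 to 4. All null libraries were lower, and the change was not called by edgeR (log2 fold change -0.53 with SE 0.168, adjusted p = 0.0797) but passed under DESeq2 (0.0262). Cryab, the chaperone alpha-B-crystallin that guards desmin and titin, had 702, 795, 732 and 719 CPM in null replicates 1 to 4 and 888, 864 and 801 CPM in wild-type replicates 2 to 4, again with all null libraries lower (log2 fold change -0.23 with SE 0.119, adjusted p = 0.265). Cryab and its neighbour Hspb2 share 19.0% of the Cryab windows, and Hspb2 was also not called (log2 fold change -0.29 with SE 0.132, adjusted p = 0.208). The other Z disc genes overlapped between groups. These were the LIM protein Csrp3 (log2 fold change 0.14, SE 0.151), the PDZ-LIM protein Ldb3 (0.23, SE 0.147), telethonin Tcap (0.18, SE 0.157), the intermediate filament desmin, Des (-0.04, SE 0.158), the repeat protein Xirp1 (0.15, SE 0.220) and the actin-binding nexilin, Nexn (0.22, SE 0.193). Among them the sign of Des turned to 0.039 when libraries were scaled to myocardial genes, and that of Xirp1 to -0.062 without null replicate 4.

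The M band held the least. Myomesin Myom1, which links thick filaments, had 182, 329, 216 and 245 CPM in null replicates 1 to 4 and 206, 217 and 189 CPM in wild-type replicates 2 to 4 (log2 fold change 0.22 with SE 0.169, adjusted p = 0.453). Null replicate 2 was the highest here as for titin. Myom2, the myomesin of fast fibres and mature heart, had 6, 23, 4 and 15 reads in the null pools and 3, 3 and 1 reads in the wild-type pools. Wild-type counts were at or under the floor and Myom2 did not pass the filter, so it was not tested and no fold is given. Per library depth, null libraries held 0.140 to 0.700 CPM and wild-type libraries 0.0358 to 0.104 CPM. The nearest were null replicate 3 with 4 reads and wild-type replicate 3 with 3, so the gap is not read as a difference. Over the 31 members tested but not called, log2 fold changes ran from -0.53 to 0.71 with SE of 0.119 to 0.339, and 19 lay within 0.25 of 0.

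**Figure D3:**
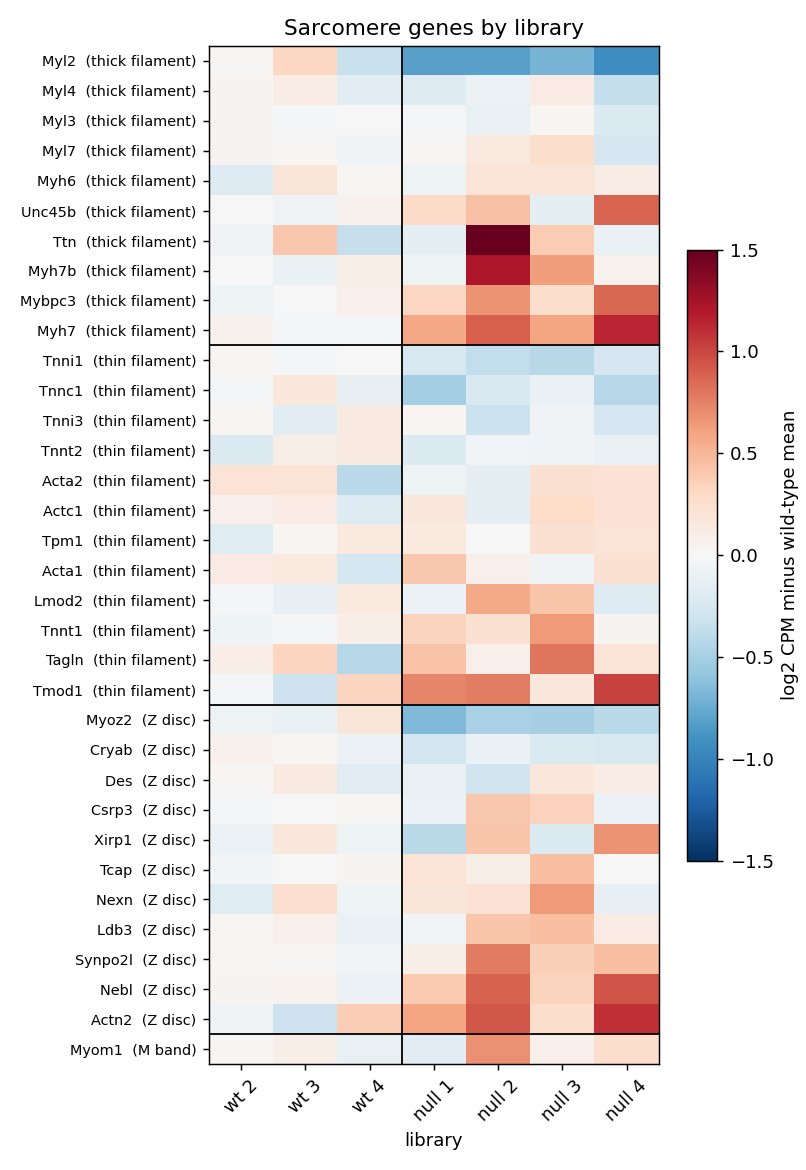
Log2 CPM minus the wild-type mean of each gene, for 34 sarcomere genes (rows, by structure and by fold change within it) and 7 libraries (columns); red is above and blue below the wild-type mean. Titin stands out in null replicate 2, and Myh7, Mybpc3, Actn2, Nebl and Tmod1 are highest in null replicates 2 and 4.

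The null libraries differed among themselves in a way that several members shared. Mybpc3, Unc45b, Tmod1, Actn2 and Nebl all had the same order, with replicate 3 lowest, then 1, 2 and 4. Null replicate 3 was the lowest of its group for 7 of 34 members. It was instead the highest for 14, among them Myl2, Myl7, Actc1, Acta2, Tagln, Tnnc1 and Des. In wild type, replicate 4 was lowest for 16 members, among them all 3 actins and Tagln, and highest for 13. The null order for Myh7 was replicate 1 lowest, then 3, 2 and 4. The members named by library order were picked after their values had been seen.

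Fold changes of the members went with exon length. The Pearson correlation of log2 fold change with log2 exon length was 0.57 over the 34 members and 0.61 without titin, against 0.15 over 14139 genes tested with a known length. All these genes share the same 7 libraries. The coefficient over the members was 0.38 without null replicate 2 and 0.49 to 0.65 with another library left out. With titin also left out, it was 0.54 without null replicate 2. Of the 15 members with over 3 kb of exon, 14 had a positive value (median 0.42), and of the 19 shorter ones 10 did (median 0.02), a boundary chosen after the values were seen. Null replicate 2 was above the mean of the other null libraries by a log2 value of 1.45 for Ttn, 0.96 for Myh7b and 0.63 for Myom1, and below it for Actc1 (-0.37) and Tagln (-0.40). It also had the largest share of reads outside genes (14.2%) and the most Neat1, a nuclear RNA (28.2 CPM, against 5.06 to 12.4 CPM in the other null and 1.07 to 2.26 CPM in wild-type libraries). The part of length and of this library in the fold changes was not tested.

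**Figure D4:**
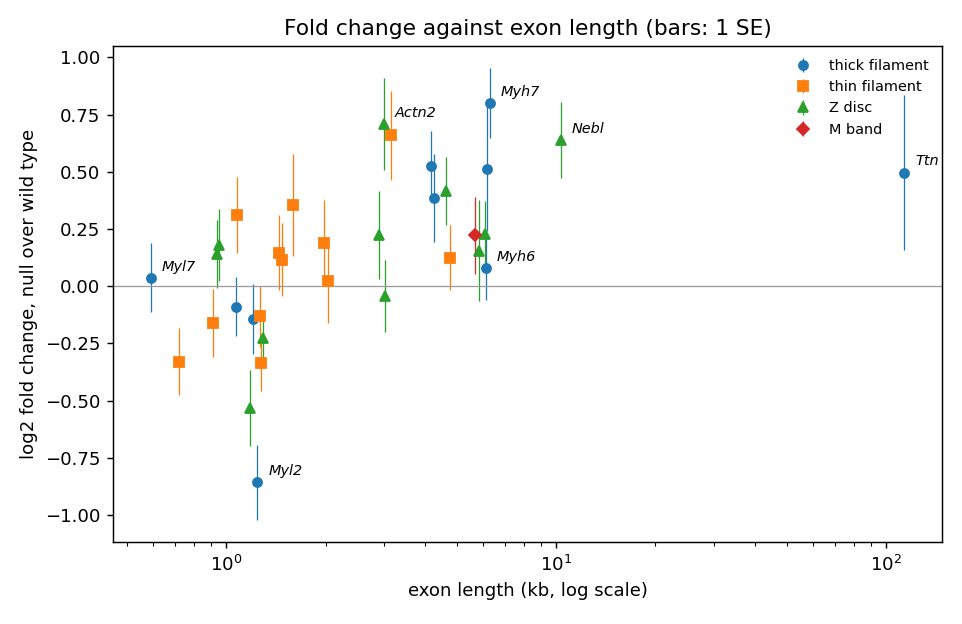
Log2 fold change of null over wild type (vertical axis, bars 1 SE) against exon length in kb (horizontal log axis) for the 34 members, marked by structure. Short genes spread around 0 with Myl2 lowest at -0.86, and of the 15 genes over 3 kb 14 lie above 0.

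Ratios between paralogs compare genes within a library and need no scaling between libraries. The log2 read ratio of Myh7 to Myh6 was 0.20, 0.25, -0.05 and 0.59 in null replicates 1 to 4 and -0.19, -0.66 and -0.51 in wild-type replicates 2 to 4. In wild type Myh6 had more reads than Myh7 in every library, and in 3 of the 4 null libraries Myh7 had more, so that the groups did not overlap (difference 0.70, exact permutation p = 0.0286, adjusted p = 0.100 over the 7 pairs). The ratio of Myl2 to Myl7 was -4.17, -4.30, -4.31 and -4.03 in null replicates 1 to 4 and -3.36, -3.05 and -3.62 in wild-type replicates 2 to 4, lower in every null library (difference -0.86, exact permutation p = 0.0286, adjusted p = 0.100 over the 7 pairs). A p of 0.0286 is the smallest that 35 splits of 7 libraries allow. Tnnt1 to Tnnt2 was -4.86, -5.14, -4.71 and -5.25 in null replicates 1 to 4 and -5.26, -5.52 and -5.44 in wild-type replicates 2 to 4, higher in the null with a narrow gap (difference 0.41, exact permutation p = 0.0571, adjusted p = 0.133 over the 7 pairs). After adjustment no pair passed 0.05. With 35 splits, a pair could pass only if most of the 7 pairs had this smallest p. The adjusted values therefore cannot tell a changed pair from an unchanged one, and no absence of change is read from them.

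The other pairs overlapped between groups. Differences were -0.17 for Tnni1 to Tnni3 (exact permutation p = 0.229), 0.04 for Acta1 to Actc1 (0.971), -0.07 for Acta2 to Actc1 (0.543) and 0.05 for Myl3 to Myl4 (0.600). Within the essential light chains and the actins, the balance of paralogs thus moved by less than the spread between libraries, whose SD was 0.07 to 0.26.

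**Figure D5:**
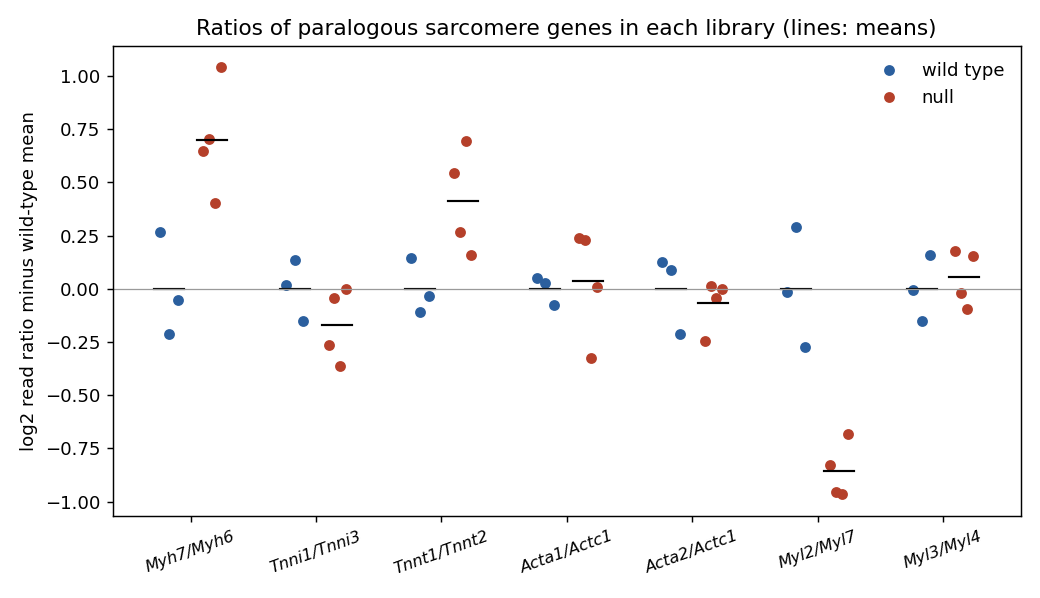
Log2 read ratio of 7 paralog pairs in each library, minus the wild-type mean of the pair; points are libraries (blue wild type, n = 3, red null, n = 4) and lines group means. Null points lie apart from wild type for Myh7/Myh6 (above, mean difference 0.70), Tnnt1/Tnnt2 (above, 0.41) and Myl2/Myl7 (below, -0.86).

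Some markers of the chambers that border the canal were called. Of 8 ventricle markers 3 fell and none rose (background 4.11% higher, 2.13% lower), the Iroquois factors Irx4 (-0.71, SE 0.141), Irx5 (-1.34, SE 0.342) and Irx2 (-1.66, SE 0.404). Irx4 had 21.9, 21.6, 23.9 and 21.9 CPM in null replicates 1 to 4 and 38.3, 37.4 and 32.6 CPM in wild-type replicates 2 to 4, without overlap, as Myl2. Irx5 and Irx2 of wild-type replicate 4 (2.87 and 3.01 CPM) lay within the null range, and Myl2 was lowest of wild type in this library too. The list's summed level was 464 to 801 CPM across null pools, against 372 to 632 CPM across wild-type pools, most of it Nppb, and none of its genes was at 0. Of 6 atrium markers 2 rose, Gja5 (1.05, SE 0.280) and Hey1 (1.10, SE 0.281), with a sum of 523 to 619.8 CPM across null pools, against 349 to 384 CPM across wild-type pools, led by Nr2f2 and Tbx5. None of 7 canal markers was called (269 to 365 CPM across null pools, against 254 to 427 CPM across wild-type pools), with Bmp2 the most abundant in wild type. Their values were negative for 5 and positive for 2 (median -0.25, lowest -1.21). For 1 canal marker all null libraries lay below all wild-type libraries, a pattern of 10.3% of all genes. With 1 library left out, Irx4 lost its call without wild-type replicate 2 (0.0903) or 3 (0.0772), Irx2 in 4, Irx5 in 5, Hey1 in 4 and Gja5 in 6 of the 7 fits. Among the members, Myl3, the ventricular essential light chain, was -0.09 (SE 0.130) without a call, and Myh7 was higher in the null (0.80, SE 0.152). The part of chamber tissue in the Myl2, Myl3 and Myh7 values was not tested.

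Of 17 genes of heart muscle outside the members, none rose and 2 fell (4.11% and 2.13% of all genes), the Popeye-domain genes Bves (-0.78, SE 0.183) and Popdc3 (-0.95, SE 0.196), with 9 positive and 8 negative values, a median of 0.00 and sums of 4939 to 5893 CPM across null pools, against 4998 to 5879 CPM across wild-type pools, Slc8a1 being the most abundant. Bves kept its call in 3 and Popdc3 in 6 of the 7 fits with 1 library left out (up to 0.152 and, without wild-type replicate 2, 0.102). Scaled to these genes, Myh7 was 0.89 (adjusted p = 0.0351) and Myl2 -0.77 (0.0160), and the calls over all genes were 447 higher and 102 lower in place of 587 and 305.

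The remaining genes of the sarcomere, 58 in 3 lists, gave 1 higher and 4 lower call among 50 tested, against 4.11% and 2.13% of all genes, with a median log2 fold change of 0.05. Of thick filament and M band genes 2 of 10 tested fell. Mylpf, the fast skeletal regulatory light chain, had 32.8, 28.8, 29.2 and 33.6 CPM in null replicates 1 to 4 and 54.0, 67.6 and 47.8 CPM in wild-type replicates 2 to 4, without overlap (log2 fold change -0.88 with SE 0.159, adjusted p = 0.00790). Myl1, the fast skeletal essential light chain, had 869, 734, 746 and 815 CPM in null replicates 1 to 4 and 1145, 990.1 and 1415 CPM in wild-type replicates 2 to 4, also without overlap (log2 fold change -0.60 with SE 0.149, adjusted p = 0.0379). Of 14 thin filament genes none was called. Of 26 Z disc and costamere genes 1 rose and 2 fell. Ankrd1, a stretch-responsive titin-binding protein and the most abundant of them, had 1849, 3256, 2681 and 2194 CPM in null replicates 1 to 4 and 965, 1317 and 1360.4 CPM in wild-type replicates 2 to 4 (log2 fold change 1.01 with SE 0.194, adjusted p = 0.0107). Every null library lay above every wild-type library. The small heat shock protein Hspb3 (log2 fold change -0.75 with SE 0.135, adjusted p = 0.00770) and calsarcin-2, Myoz1 (log2 fold change -0.66 with SE 0.157, adjusted p = 0.0296), fell.

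Myl2, Mylpf and Myl1 of the light chains, and Myoz1 of the calsarcins, were thus called lower, while Myoz2 lay at -0.53 without a call. With 1 library left out, Mylpf lost its call without wild-type replicate 3 (adjusted p = 0.0580), Ankrd1 without wild-type replicate 2 (0.0761), and Hspb3 without either (0.0533 and 0.0561). Myl1 lost it without any library but null replicate 3 (up to 0.137), and Myoz1 without any but null replicates 3 and 4 (up to 0.0997). Of 24 smooth muscle and non-muscle contractile genes, 1 rose and none fell, against 4.11% and 2.13% of all genes. This was Cnn1, calponin, with 517, 568, 605 and 551 CPM in null replicates 1 to 4 and 417, 381 and 379.5 CPM in wild-type replicates 2 to 4 (log2 fold change 0.50 with SE 0.125, adjusted p = 0.0383), and it kept the call in 1 of the 7 fits, that without null replicate 3 (others up to 0.172). Actb, the most abundant of this list, had 0.19 (SE 0.161). Of the list, 20 of 24 values were positive (52.3% of all genes were), with a median of 0.19, and sums of 17806 to 21309.9 CPM across null pools, against 14992 to 17754 CPM across wild-type pools.

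Skeletal muscle was checked because Mylpf, Myl1, Tnnt1, Tnni1 and Acta1 are also genes of body muscle. Of 8 skeletal muscle markers 7 were under the filter and none was called. Their sum was 0.134 to 0.745 CPM in null libraries, 0.490 and 0.138 CPM in wild-type replicates 2 and 3, and 11.8 CPM in wild-type replicate 4. In that library Myf5 reached 7.63 CPM and Myog 0.753 CPM, and both were listed at 0 in the other wild-type libraries, where 3 reads would be 0.0669 and 0.104 CPM. Without wild-type replicate 4, Mylpf was -0.9985 (adjusted p = 0.00939) and Myl1 -0.46 (adjusted p = 0.118).

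Markers of other tissues that a dissected canal can hold were counted against the same shares of all genes, 4.11% higher and 2.13% lower. Of 10 endothelial and endocardial markers 3 rose (Kdr, Tie1, Pecam1), with sums of 503 to 571 CPM across null pools, against 346 to 405 CPM across wild-type pools and Egfl7 the most abundant. Of 8 cushion mesenchyme markers 5 fell (Twist1, Sox9, Msx1, Postn and Snai1; 76.2 to 109 CPM across null pools, against 136 to 276 CPM across wild-type pools, Sox9 the most abundant). Of 10 erythroid markers, 8 of them tested, 1 fell, Klf1 (5618 to 14544 CPM across null pools, against 9352 to 22083 CPM across wild-type pools, Hbb-y the most abundant; Hba-a1 and Hba-a2 were listed at 0 reads in all 7 libraries). Of 7 outflow and second heart field markers 1 rose, Isl1 (66.1 to 151 CPM across null pools, against 58.9 to 79.4 CPM across wild-type pools, Sema3c the most abundant), and of 7 foregut markers, 4 of them tested, 1 rose, Sox17 (5.68 to 13.8 CPM across null pools, against 4.05 to 4.81 CPM across wild-type pools, Epcam the most abundant in wild type). None of 6 epicardial markers was called (59.1 to 73.8 CPM across null pools, against 42.4 to 62.6 CPM across wild-type pools, Wt1 the most abundant). Among the genes named here, Kdr, Tie1 and Twist1 were called in all 7 fits with 1 library left out, Sox9, Postn and Isl1 in 6, Pecam1 and Snai1 in 4, Sox17 in 3, and Klf1 and Msx1 in 2. The part of these cell types in the values of the sarcomere genes was not tested.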

How the data were processed

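Read counts per gene were deposited for 7 libraries, whole numbers for 23284 gene symbols in 1 file per library. The alignment (TopHat2 2.0.13, build mm9), HTSeq and SAMtools are named per the submitters' processing notes. No source used here gives the annotation or the options of the counting. Per the labels' protocols, ribosomal RNA was depleted and unstranded cDNA libraries were amplified for 8 PCR cycles and read as single 50-base reads, so counts are not independent molecules. The 5 summary rows of each file (no feature 7.31% to 14.2%, ambiguous 1.46% to 1.69%, and several alignments 9.08% to 13.8%, of all rows) were left out of library sizes.

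Genes passing edgeR's default expression filter were fitted over all 7 libraries by genotype (edgeR 4.0.16, R 4.3.3, TMM scaling, quasi-likelihood F test, Benjamini-Hochberg adjusted p under 0.05 over all 14290 genes). Log2 fold changes are null minus wild type. Their SE is not reported by edgeR and was derived as the absolute log2 fold change over the square root of the F statistic. Ratios of paralogs (0.5 read added to each count) were compared with an exact permutation test, two-sided, over all 35 assignments of 4 null and 3 wild-type labels, adjusted over 7 pairs. Replicates are separate pools of 4 canals. Values in every library were given for members called, for members of the pairs and for the 5 most abundant per length, other members by range and count, and of the other lists the called and the most abundant genes. Further members shown by library were chosen after their values were seen. The members and lists were chosen with earlier results of these data known. Alternatives were RLE, upper-quartile and myocardium-based scaling, DESeq2 1.42.0, filters on low counts, a replicate block, and each library left out. Leaving out null replicate 2 and wild-type replicate 4 together was added after seeing the data. The scripts were tested on simulated data. Exon lengths are from GENCODE M21 and sequences from RefSeq (GRCm38.p6), both of a later build than the counts, matched by symbol.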

Additional observations from a re-analysis of the deposited data

How the results depend on the processing

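Over all genes, 587 were called higher and 305 lower. DESeq2 gave 993 and 768, scaling to myocardial genes gave 102 lower, and the replicate block gave 814 and 565. With 1 library left out, higher calls ran from 210 (without wild-type replicate 2) to 946 (without null replicate 3) and lower calls from 46 to 652 (the same libraries). Dropping both null replicate 2 and wild-type replicate 4, a choice made after seeing the data, left 298 and 123. Of the members, 2 were called higher and 1 lower. Higher calls among them were 1 with scaling to myocardial genes, 5 with DESeq2, 6 with the replicate block, 0 to 5 with 1 library left out, and 0 with both libraries left out. Lower calls were 2 with DESeq2 and 0 to 1 with 1 library left out. The fits that leave libraries out have fewer samples, and the cause of these shifts was not tested. The block added Actn2 (adjusted p = 0.0105), Tmod1 (0.0197), Mybpc3 (0.0372) and Synpo2l (0.0447) to Myh7 and Nebl. Same-numbered pools correlated at -0.07 (replicate 2), 0.26 (replicate 3) and 0.17 (replicate 4) in their deviations. Among pools with different numbers, the highest value was 0.14 (null replicate 2 with wild-type replicate 4). The lowest was -0.23, for null replicate 3 with wild-type replicate 4 and for null replicate 4 with wild-type replicate 3. Whether the replicate numbers pair the samples was not tested.

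Myh7 and Myl2 kept their call and direction under the 7 alternatives with all libraries (0.78 to 0.89 and -0.87 to -0.77). With both libraries left out, the adjusted p was 0.0603 for Myh7 and 0.0155 for Myl2. Signs turned only for members that were not called. With 1 library left out, Myh6 ran from -0.020 to 0.19, Myl7 from -0.057 to 0.12, Acta2 from -0.16 to 0.14, Des from -0.13 to 0.058 and Xirp1 from -0.062 to 0.28. With both left out, Ttn was -0.13, Acta2 -0.074 and Myl7 -0.00095. Des was 0.039 with scaling to myocardial genes. The paralog ratios and the summed level moved by less than the larger of the SDs of the 2 groups under their alternatives. The differences for 2 overlapping pairs turned sign with 1 library left out, Acta1 to Actc1 (-0.029 to 0.16) and Myl3 to Myl4 (-0.021 to 0.13). Depth limits Myom2, with 1 to 3 reads in wild-type libraries, and the microRNA precursors, with at most 2 reads in a library.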
